A study of Homo sapiens with 2 samples.

Results

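Junction and surface adhesion transcripts were examined in 22Rv1 cells, an established castration-resistant human prostate cancer line, by RNA-seq of total RNA. The 10 genes were named by their known place in epithelial contacts, although earlier results of these data were known when they were chosen: EPCAM and CD24 at the cell surface, CLDN3, CLDN4, CLDN7, OCLN and TJP1 of tight junctions, and CDH1, CTNNB1 and CTNND1 of adherens junctions. They are 10 of the 57326 gene symbols in the deposited table, each with a single entry. The cells expressed either a short hairpin RNA against EIF3F, which encodes a subunit of translation initiation factor eIF3 (shEIF3F), or the vector control (shCON). Both groups share the 22Rv1 background. Neither the hairpin sequence nor the time after its introduction was given in the sources used here. Each group had 1 library, so no difference below has a replicate check, and no test, error or p-value could be computed. With 1 hairpin, an effect of EIF3F loss and other effects of that hairpin cannot be told apart.

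Epithelial cells are sealed to each other by tight junctions, in which claudins and occludin form strands across the membrane and ZO proteins tie these strands to actin. Below them, adherens junctions hold cells together through E-cadherin, whose cytoplasmic tail binds beta-catenin and p120-catenin. Beta-catenin is also the transcriptional effector of Wnt signalling. EPCAM is a surface glycoprotein of epithelia that binds claudin-7, and CD24 is a small glycosylated surface protein with a lipid anchor. In carcinoma cells, loss of E-cadherin, claudins and occludin is a classical mark of epithelial-mesenchymal transition, driven by E-box-binding repressors such as SNAI1, SNAI2, ZEB1 and ZEB2.

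Values are TPM, a transcript abundance scaled to transcript length and to the total of each library. Read numbers cannot be recovered from TPM, and sequencing depth is therefore unknown. The log2 ratio is log2((shEIF3F TPM + 1) / (shCON TPM + 1)), and a gene counts as at least 2-fold higher or lower at 1 or more, or at -1 or less. This is a rule of size and not a test. EIF3F itself stood at 17.01 TPM in shEIF3F and 991 TPM in shCON, 1.72% of the control level. All 11 prostate luminal markers examined had a mean of 1 TPM or more. Keratin KRT8 was at 347 TPM in shEIF3F and 301 TPM in shCON, and KRT18 at 336 TPM in shEIF3F and 173 TPM in shCON. The androgen-induced kallikrein KLK2 was far lower, at 2.5 TPM in shEIF3F and 32.6 TPM in shCON.

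All 10 junction and adhesion transcripts passed the minimum, a mean of at least 1 TPM across the 2 libraries. Of them, 4 were at least 2-fold higher in shEIF3F (OCLN, EPCAM, CD24 and CLDN3) and 0 at least 2-fold lower. Among the 13306 genes that reached that mean, 8.43% were higher in shEIF3F by 2-fold or more and 25.5% lower. The member median log2 ratio was 0.62, against -0.36 over all genes tested, whose middle 50% ran from -1.02 to 0.27. The median of all genes lay below 0, and centring on it adds 0.36 to every log2 ratio. As deposited, genes higher in shEIF3F made up 24.8% of all those past 2-fold. They made up 47.9% after centring and 48.0% after the libraries were rescaled without their 100 most abundant genes. After centring, 5 of the 10 members were at least 2-fold higher, with CDH1 (1.16) added, and 0 lower, against 14.7% of all genes tested higher and 16.0% lower on that scale. The summed level of the 10 transcripts was nearly equal, at 652 TPM in shEIF3F and 657 TPM in shCON.

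**Figure D1:**
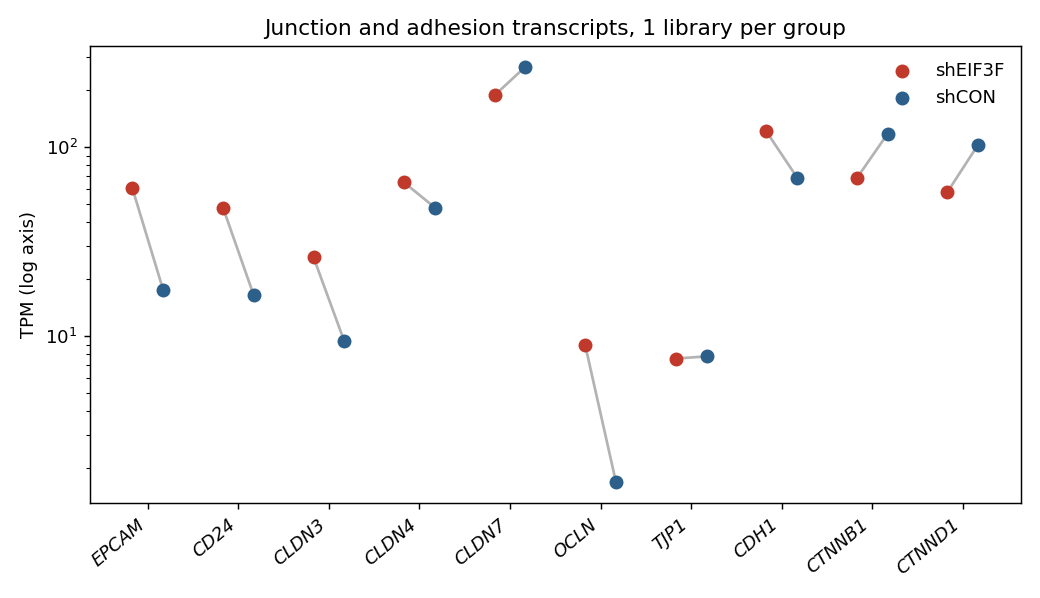
TPM of the 10 junction and adhesion transcripts on a log axis, with a red point for the shEIF3F library and a blue point for the shCON library, 1 library each. EPCAM, CD24, CLDN3, OCLN, CLDN4 and CDH1 stand higher in shEIF3F, whereas CTNNB1 and CTNND1 stand lower, as does CLDN7 on the deposited scale (its log2 ratio was 0.22 with the GC trend removed), and TJP1 lies level, at 7.59 TPM in shEIF3F and 7.79 TPM in shCON.

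**Figure D2:**
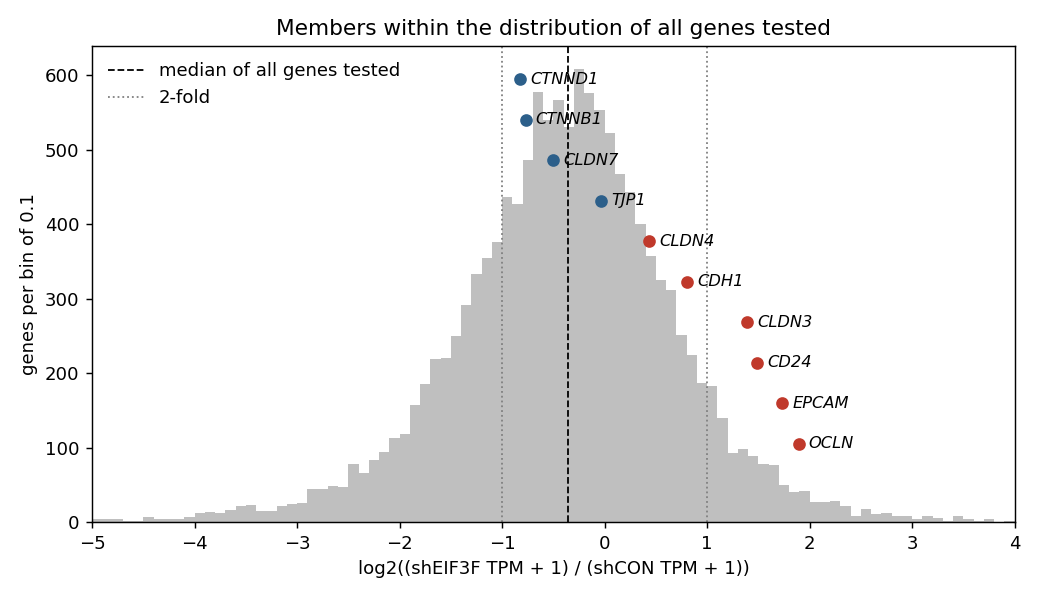
Grey bars count the 13306 genes tested by log2 ratio, in bins of 0.1, with tails that run beyond the axis. The 10 members are placed at their own ratios, at heights chosen for legibility only; the dashed line marks the median of all genes (-0.36) and the dotted lines 2-fold.

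Promoter sequence is shown for the claudins and occludin, because these tight junction strand genes ran from OCLN, with the highest ratio of the 10, to CLDN7, whose deposited value was lower in shEIF3F. RefSeq promoter windows on GRCh38.p14, each from 250 bases before to 50 bases after a transcript start, were matched for 7 of the 10 members, with 14 windows in all. The window printed for each gene is the one with most matches to the E-box CAGGTG, read on either strand as CAGGTG or CACCTG. Capitals mark these matches.
OCLN (chr5:69492540-69492839, plus strand): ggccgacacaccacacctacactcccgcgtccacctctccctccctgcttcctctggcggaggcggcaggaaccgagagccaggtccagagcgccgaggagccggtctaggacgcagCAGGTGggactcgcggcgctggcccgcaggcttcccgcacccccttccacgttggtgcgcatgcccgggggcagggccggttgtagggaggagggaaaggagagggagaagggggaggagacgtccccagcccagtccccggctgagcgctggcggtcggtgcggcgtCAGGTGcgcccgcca
CLDN3 (chr7:73770221-73770520, minus strand): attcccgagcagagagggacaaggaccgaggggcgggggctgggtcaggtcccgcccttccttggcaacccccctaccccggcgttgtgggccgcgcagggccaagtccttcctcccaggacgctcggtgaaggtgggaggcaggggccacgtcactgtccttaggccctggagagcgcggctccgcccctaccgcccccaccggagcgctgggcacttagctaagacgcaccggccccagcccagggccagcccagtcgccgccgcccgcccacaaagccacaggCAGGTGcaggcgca
CLDN4 (chr7:73830746-73831045, plus strand): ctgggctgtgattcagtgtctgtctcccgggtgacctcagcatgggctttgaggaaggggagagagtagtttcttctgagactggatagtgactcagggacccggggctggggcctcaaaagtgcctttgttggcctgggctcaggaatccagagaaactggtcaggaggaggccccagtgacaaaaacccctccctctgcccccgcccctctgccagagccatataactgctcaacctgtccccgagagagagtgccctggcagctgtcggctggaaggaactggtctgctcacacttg
CLDN7 (chr17:7262429-7262728, minus strand): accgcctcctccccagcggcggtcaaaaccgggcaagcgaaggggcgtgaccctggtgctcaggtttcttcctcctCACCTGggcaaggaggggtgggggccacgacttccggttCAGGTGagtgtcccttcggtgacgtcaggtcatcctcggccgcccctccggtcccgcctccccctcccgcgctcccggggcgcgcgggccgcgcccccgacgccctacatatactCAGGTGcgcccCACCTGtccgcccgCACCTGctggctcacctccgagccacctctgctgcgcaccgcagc

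This E-box, a site type that Snail and ZEB repressors are known to bind, occurred in 20.6% of all 35116 RefSeq promoter windows. The printed CLDN7 window held 5 matches, a number reached by 0.094% of all windows. It was chosen for having most matches, unlike the windows behind that share, and the other CLDN7 window held 0. The first bases of the 5 matches lay at -174, -135, -20, -9 and 6 counted from the start site, negative before it. The OCLN window held 2 matches (-133 and 36), the CLDN3 window 1 (37) and the CLDN4 window 0. Among the other members with a window, TJP1 and CD24 each had 1 match in 1 of their windows and CTNNB1 had 0. GGGCGG, the core of a GC box and read on both strands, occurred in 45% of all windows and 6 times in the CLDN3 window, a number that 2.86% of all windows reached. AACCNGTT, a grainyhead-type motif also read on both strands, was in 1.73% of all windows and in 0 of the 14. A match is a description of these letters and not evidence of binding.

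EPCAM and CD24, the surface glycoproteins, were both at least 2-fold higher in shEIF3F. EPCAM had 60.5 TPM in the shEIF3F library and 17.5 TPM in the shCON library, a 3.45-fold difference (log2 ratio 1.73). Of all genes tested, 2.58% had a higher ratio. CD24 had 47.9 TPM in shEIF3F and 16.4 TPM in shCON, 2.92-fold (log2 ratio 1.49), and 4.03% of genes tested had a higher ratio. The level of EPCAM over that of CD24 was nearly alike in both libraries, at 1.26 in shEIF3F and 1.07 in shCON. The CD24 pseudogenes CD24P1, CD24P2 and CD24P4, which are close in sequence to CD24, were listed at 0 in both libraries. How reads shared with them were assigned is not given in the sources used here.

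Occludin, a multi-pass membrane protein of tight junction strands, had the highest log2 ratio of the members. OCLN had 8.94 TPM in shEIF3F and 1.68 TPM in shCON, 5.32-fold without a pseudocount (log2 ratio 1.89 with a pseudocount of 1). It was also the lowest of the 10 in shCON, ranking 5596 by TPM in shEIF3F and 11791 in shCON among symbols other than small RNAs, so its ratio leans on a small control value. With a pseudocount of 5 the ratio was 1.06. The partial copy OCLNP1, which can share reads with OCLN, was higher as well, at 1.35 TPM in shEIF3F and 0.31 TPM in shCON. With both entries summed, the log2 ratio was 1.92.

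The 3 claudins differed among themselves. CLDN3 had 26.1 TPM in shEIF3F and 9.36 TPM in shCON, 2.79-fold (log2 ratio 1.39). CLDN4 had 65.0 TPM in shEIF3F and 47.8 TPM in shCON, 1.36-fold (log2 ratio 0.43), short of 2-fold. CLDN7, the claudin that binds EPCAM, was the most abundant of the 10 in both libraries and stood the other way, at 188 TPM in shEIF3F and 267 TPM in shCON (log2 ratio -0.50). The sign of the CLDN7 ratio rested on scaling, at -0.14 after centring, -0.07 after rescaling and 0.22 with a trend in GC content removed. CLDN7 shares exon sequence with ELP5 on the opposite strand, and ELP5 was lower too, at 60.7 TPM in shEIF3F and 115 TPM in shCON. The use of strand in counting is not stated, so reads of the pair cannot be told apart. CLDN3 has the most GC-rich transcript of the 10, at 69.2% GC. Genes of similar GC content had a median log2 ratio of -1.15, and the CLDN3 ratio was 2.53 once that trend was removed.

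Ratios between levels within a library do not depend on how the library was scaled. CLDN7 stood 7.22 times as high as CLDN3 in shEIF3F and 28.5 times as high in shCON. Over CLDN4 it stood 2.896 times as high in shEIF3F and 5.57 times in shCON. Relative to EPCAM, its binding partner, CLDN7 was at 3.11 in shEIF3F and 15.2 in shCON, a 4.90-fold difference. These level ratios still hold the GC trend. With that trend removed, log2 ratios were 1.97 for EPCAM, 2.53 for CLDN3, 0.88 for CLDN4 and 0.22 for CLDN7. Of the 23 claudin genes, 7 had a mean of 1 TPM or more. CLDN7 held 63.1% of summed claudin TPM in shEIF3F and 78.1% in shCON, CLDN4 21.8% in shEIF3F and 14.0% in shCON, and CLDN3 8.74% in shEIF3F and 2.74% in shCON. Total claudin level was 298 TPM in shEIF3F and 342 TPM in shCON. Outside the members, CLDN14 was at 4.64 TPM in shEIF3F and 2.38 TPM in shCON (0.74). CLDN15 was at 3.14 TPM in shEIF3F and 8.31 TPM in shCON (-1.17), although within 2-fold after centring (-0.81).

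**Figure D3:**
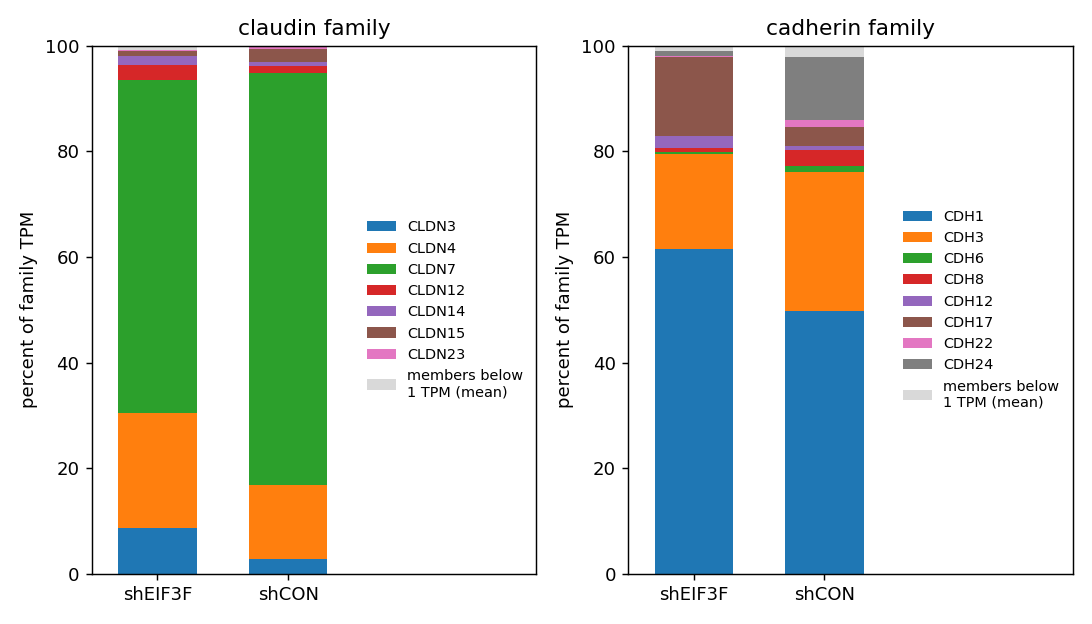
Stacked bars give each gene's percent of the summed TPM of its family in shEIF3F (left bar) and shCON (right bar), for 23 claudins and 22 cadherins, with genes below a mean of 1 TPM pooled in pale grey. CLDN7 takes a smaller share in shEIF3F (63.1%, against 78.1% in shCON) and CDH1 a larger one (61.5%, against 49.7%).

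TJP1, which encodes the scaffold protein ZO-1, was the member closest to equality, at 7.59 TPM in shEIF3F and 7.79 TPM in shCON (log2 ratio -0.03, or 0.32 after centring). OCLN and TJP1, whose products bind each other, were thus at a level ratio of 1.18 in shEIF3F and 0.216 in shCON. Of 18 other tight junction genes, 13 had a mean of 1 TPM or more, 2 at least 2-fold higher and 2 lower, with a median log2 ratio of 0.12. Cingulin CGN, a cytoplasmic plaque protein, was at 63.4 TPM in shEIF3F and 23.6 TPM in shCON (1.39). TJP3, encoding ZO-3, was at 29.5 TPM in shEIF3F and 11.3 TPM in shCON (1.31). The lower genes encode membrane proteins, LSR of tricellular contacts (-1.32) and the junctional adhesion molecule F11R (-1.07). Both were within 2-fold after centring, at -0.96 for LSR and -0.71 for F11R.

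At adherens junctions, the cadherin was higher in shEIF3F and its catenins were lower, all by less than 2-fold. CDH1, which encodes E-cadherin, had 121 TPM in shEIF3F and 69.0 TPM in shCON, 1.76-fold (log2 ratio 0.80). CTNNB1, which encodes beta-catenin, had 68.5 TPM in shEIF3F and 118 TPM in shCON (log2 ratio -0.77). CTNND1, which encodes p120-catenin, had 57.8 TPM in shEIF3F and 103 TPM in shCON (log2 ratio -0.83). With the all-gene median taken as the origin, these ratios were 1.16 for CDH1, -0.41 for CTNNB1 and -0.47 for CTNND1. With the GC trend removed they were 1.09 for CDH1, -0.76 for CTNNB1 and -0.59 for CTNND1. Both catenins lay within the middle 50% of all genes tested, and 32.9% of genes had a lower ratio than CTNNB1 and 31.2% than CTNND1.

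The level of CDH1 over that of CTNNB1 was 1.77 in shEIF3F and 0.586 in shCON, a 3.02-fold difference. Over CTNND1 it was 2.10 in shEIF3F and 0.668 in shCON, a 3.14-fold difference. In TPM, E-cadherin mRNA was thus above each catenin mRNA in shEIF3F and below each in shCON. The level of CTNNB1 over CTNND1 hardly differed, at 1.19 in shEIF3F and 1.14 in shCON. CTNNA1, whose product alpha-catenin links beta-catenin to actin, was also lower, at 73.6 TPM in shEIF3F and 108 TPM in shCON (-0.55). Plakoglobin JUP, which can take the place of beta-catenin on cadherins, was at 50.02 TPM in shEIF3F and 52.9 TPM in shCON (-0.08, or 0.28 after centring).

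Among 22 cadherins, 8 had a mean of 1 TPM or more, 2 at least 2-fold higher and 2 lower. CDH1 held 61.5% of summed cadherin TPM in shEIF3F and 49.7% in shCON. P-cadherin CDH3, the next most abundant, was at 35.4 TPM in shEIF3F and 36.5 TPM in shCON. CDH17, an intestinal cadherin, was at 29.2 TPM in shEIF3F and 4.91 TPM in shCON (2.35). CDH12 was at 4.61 TPM in shEIF3F and 1.09 TPM in shCON (1.42). CDH24 stood the other way, at 2.12 TPM in shEIF3F and 16.7 TPM in shCON (-2.51). N-cadherin CDH2, named after its values were seen, was at 0.73 TPM in shEIF3F and 0.23 TPM in shCON, below the minimum. Of 16 other adherens junction genes, 12 were measured at a mean of 1 TPM or more, 1 at least 2-fold higher and 2 lower. CTNND2, a p120 relative best known from neurons, was at 16.95 TPM in shEIF3F and 4.58 TPM in shCON (1.69). CTNNBIP1, which blocks the binding of beta-catenin to TCF factors, was at 1.24 TPM in shEIF3F and 22.9 TPM in shCON (-3.42). NECTIN1 was lower by less than 2-fold after centring (-1.09 as deposited, -0.73 centred).

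Desmosome and polarity genes gave a mixed picture. Of 16 desmosome genes, 8 had a mean of 1 TPM or more, 1 at least 2-fold higher and 1 lower, with a median log2 ratio of 0.35. PERP, a membrane protein of desmosomes, was at 41.7 TPM in shEIF3F and 13.0 TPM in shCON (1.61). Plakophilin PKP3 stood at 30.6 TPM in shEIF3F and 92.6 TPM in shCON (-1.57, -1.21 centred, -0.42 with the GC trend removed). Of 14 measured polarity genes, 0 were at least 2-fold higher and 4 lower. They included LLGL1 at 5.33 TPM in shEIF3F and 20.1 TPM in shCON (-1.73), CRB3 at 10.9 TPM in shEIF3F and 36.3 TPM in shCON (-1.64), and SCRIB at 66.2 TPM in shEIF3F and 164 TPM in shCON (-1.30). After centring, 2 polarity genes were at least 2-fold lower, where 16.0% of all genes tested were. With the GC trend removed, 0 were, where 13.9% of all genes tested were. Over the claudin, tight junction, adherens junction, cadherin, desmosome and polarity lists without the 10 members, 57 of 108 genes were measured. Of these, 10.5% were at least 2-fold higher and 21.1% lower, against 8.43% and 25.5% of all genes tested, with a median log2 ratio of 0.03. Among the 10 members, the share at least 2-fold higher was 40%. After centring, 13 of the 57 and 5 of the 10 members were at least 2-fold higher, where 14.7% of all genes tested were. The differences between these shares have no replicate check.

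**Figure D4:**
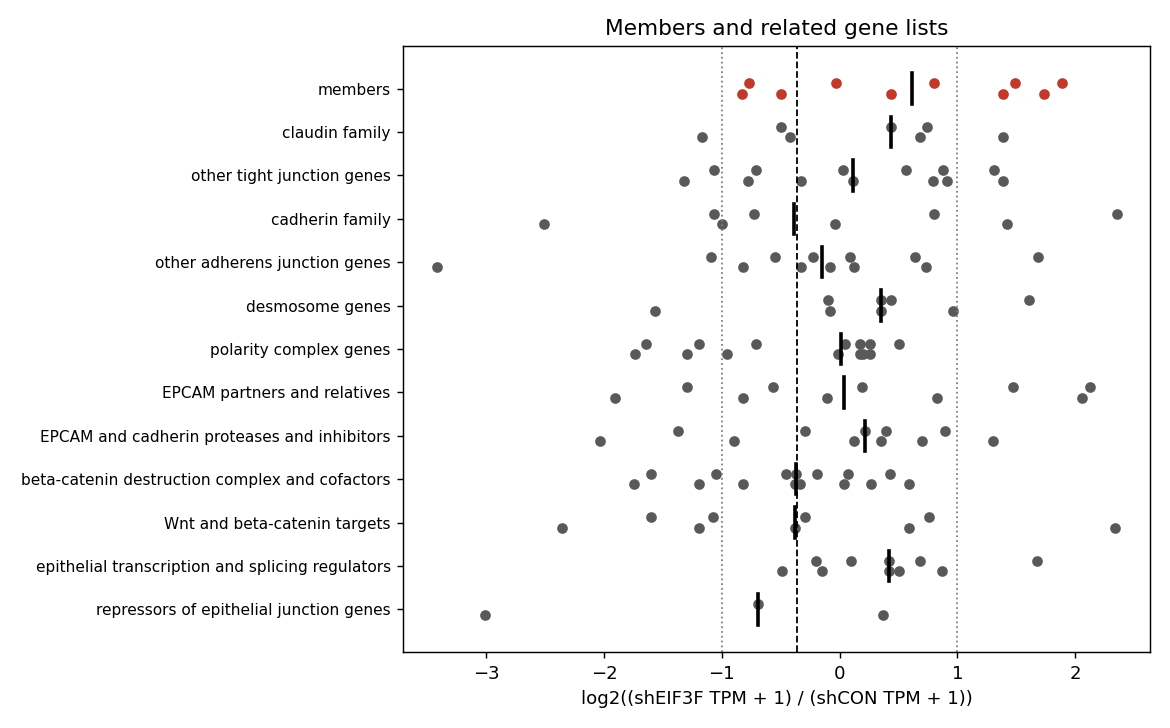
Each point is a gene whose mean reached 1 TPM, placed by its log2 ratio, and each row a gene list with its median as a black bar; the 10 members are red. The dashed line marks the median of all genes (-0.36) and the dotted lines 2-fold; the members' median is 0.62.

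Genes that act on the members were examined next. EPCAM sits in membrane complexes with tetraspanins, and of 12 partners and relatives 10 were measured, 3 at least 2-fold higher and 2 lower. These were 30% higher and 20% lower, where 8.43% of all genes tested were higher and 25.5% lower. Tetraspanin TSPAN8 was at 157 TPM in shEIF3F and 36.9 TPM in shCON (2.06), and the adhesion molecule ALCAM at 29.3 TPM in shEIF3F and 5.97 TPM in shCON (2.12). CD151, another tetraspanin, was at 61.9 TPM in shEIF3F and 235 TPM in shCON (-1.91). Among 11 measured proteases and inhibitors of EPCAM and cadherin cleavage, 1 was at least 2-fold higher (9.09%) and 2 lower (18.2%). The gamma-secretase subunit NCSTN was at 131 TPM in shEIF3F and 52.2 TPM in shCON (1.31). PSENEN, a subunit of that same enzyme, was at 22.9 TPM in shEIF3F and 96.5 TPM in shCON (-2.03). BACE1, a further membrane protease, had a log2 ratio of -1.37.

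For CTNNB1, genes of the destruction complex and transcriptional cofactors were counted. Of 15 measured, 0 were at least 2-fold higher and 4 lower, with a median log2 ratio of -0.37, close to that of all genes. The 4 lower were 26.7% of the 15, near the 25.5% of all genes tested. Correction for GC content left 0 of the 15 lower, where 13.9% of all genes tested were. Centring left 2 lower, where 16.0% of all genes tested were. BCL9L, a beta-catenin coactivator, was at 5.17 TPM in shEIF3F and 19.7 TPM in shCON (-1.75). LEF1, which recruits beta-catenin to DNA, was at 16.9 TPM in shEIF3F and 10.9 TPM in shCON (0.59). Of 9 measured Wnt and beta-catenin targets, 1 was at least 2-fold higher and 4 lower, again with a median of -0.37, where 8.43% of all genes tested were higher and 25.5% lower. Once ratios were centred, 2 were lower, and 1 when corrected for GC content. NKD2, an antagonist of the pathway, was at 1.68 TPM in shEIF3F and 12.8 TPM in shCON (-2.36). The secreted inhibitor DKK1 was at 24.1 TPM in shEIF3F and 3.96 TPM in shCON (2.34). Of 9 measured binding partners of p120-catenin and ZO proteins and their GTPase regulators, 0 were at least 2-fold higher and 2 lower, ARHGAP35 (-1.54) and ARHGEF2 (-1.47). The 2 lower were 22.2% of the 9, near the share of all genes tested.

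Among known repressors of junction genes, SNAI2 was at 2.53 TPM in shEIF3F and 27.5 TPM in shCON (log2 ratio -3.01). It was the 1 of 3 measured repressors past 2-fold. TWIST1 stood the other way, at 9.84 TPM in shEIF3F and 7.39 TPM in shCON (0.37), and TCF4 had a log2 ratio of -0.69. Of the 10 repressors listed, 7 had a mean below 1 TPM, among them SNAI1, ZEB1 and ZEB2, named after their values were seen. Of 10 measured epithelial transcription and splicing regulators, 1 was at least 2-fold higher and 0 lower, with a median of 0.42. Of all genes tested, 8.43% were higher and 25.5% lower. The 1 higher regulator was ELF3, an epithelial ETS factor, at 59.0 TPM in shEIF3F and 17.8 TPM in shCON (1.68). KLF5 was at 13.7 TPM in shEIF3F and 7.06 TPM in shCON (0.87). Any part of SNAI2 or ELF3 in the member values was not tested.

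Markers of other cell types were set beside these results. No endothelial marker of 8 reached a mean of 1 TPM, and 4 were listed at 0 in both libraries. Leukocyte markers summed to 6.4 TPM in shEIF3F and 7.42 TPM in shCON, with 2 of 9 listed at 0 in both. Mesenchymal markers, 6 of 12 measured, summed to 162 TPM in shEIF3F and 83.8 TPM in shCON, with 2 at least 2-fold higher and 1 lower. FN1 was at 93.2 TPM in shEIF3F and 22.3 TPM in shCON (2.02), and ACTA2 at 27.5 TPM in shEIF3F and 3.73 TPM in shCON (2.59). DCN was at 4.86 TPM in shEIF3F and 12.9 TPM in shCON (-1.25, or -0.89 centred). Of the 6 measured, 4 had a log2 ratio below 0, and the list median was -0.24, against -0.36 over all genes tested. LUM was at 20.85 TPM in shEIF3F and 24.3 TPM in shCON (-0.21, or 0.15 centred). COL1A1 had a log2 ratio of -0.91 (-0.55 centred). The higher sum in shEIF3F was thus not shared by most of these markers. Intestinal markers, 4 of 10 measured, summed to 253 TPM in shEIF3F and 156 TPM in shCON, with CDX1 listed at 0 in both. Of these 4, LGALS4, MUC13 and CDH17 were at least 2-fold higher. Hepatocyte markers, 5 of 12 measured, summed to 1085 TPM in shEIF3F and 202 TPM in shCON, mostly ALB, with APOB, FGB and FGG listed at 0 in both. CDX1, APOB, FGB and FGG were named after their values were seen. VIL1, the most abundant intestinal marker, was level at 107 TPM in shEIF3F and 109.8 TPM in shCON. Of the measured hepatocyte markers, 4 were at least 2-fold higher and APOA1 was not (-0.20). Any part of these intestinal, hepatocyte and mesenchymal markers in the values of EPCAM, CD24, CLDN3 and OCLN was not tested. In bulk RNA, a different share of cells of a kind and a different RNA level per cell cannot be told apart.

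**Figure D5:**
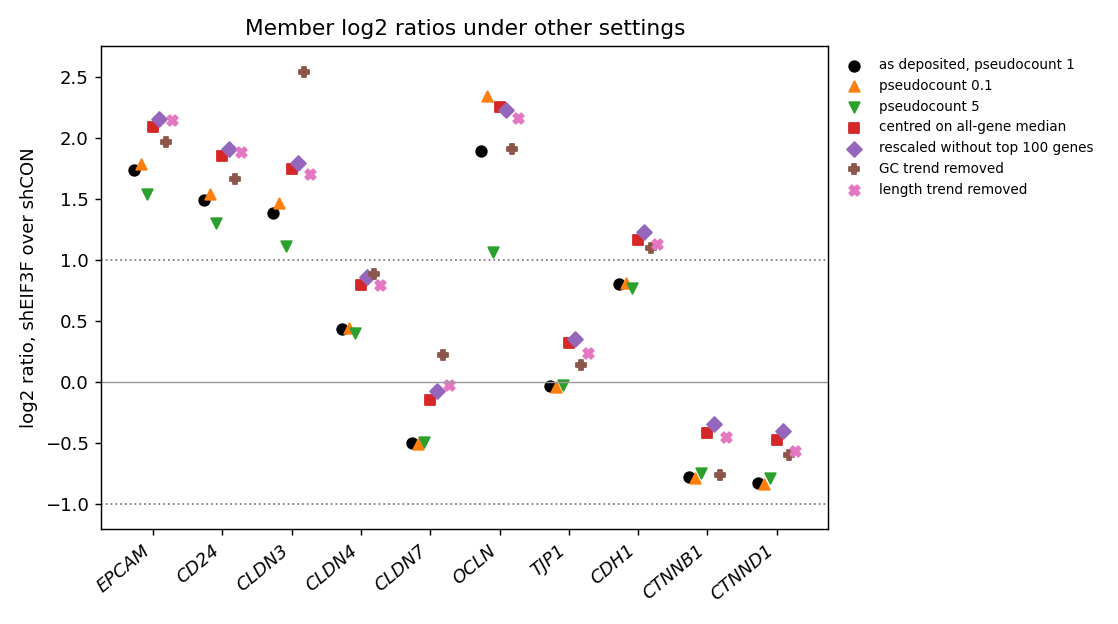
Log2 ratio, shEIF3F over shCON, of each member under the values as deposited and 6 other settings; dotted lines mark 2-fold. OCLN, EPCAM, CD24 and CLDN3 stay above 1 in each setting plotted, CDH1 crosses 1 when ratios are centred, rescaled or trend-corrected, and TJP1 changes sign in those settings and CLDN7 with the GC trend removed.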

How the data were processed

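Total RNA of 1 shEIF3F and 1 shCON library was sequenced after Trizol extraction and Illumina TruSeq preparation, per the labels' protocols. The authors deposited a TPM value for every gene, written to 2 decimals. CASAVA, HISAT2 and the build hg19 are named, without versions, per the submitters' processing notes. The counter, annotation, strand setting and filters are not given in those sources. Depth is unknown, so no interval or limit was computed.

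Columns were matched to groups by the sample descriptions. Of 58884 entries, 27 turned into dates were left out, and entries repeating a symbol were summed. Genes typed as small RNAs in GENCODE release 29 (6052 symbols) were also left out. Log2 ratios used a pseudocount of 1, and a gene was tested where its mean reached 1 TPM. GENCODE 29 gave the GC content and length of the longest transcript for 99.1% of genes tested. It describes another build than hg19, so it lends the values no coordinates. Promoter windows are RefSeq's on GRCh38.p14, not the build of the reads.

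The members, lists, settings and naming rule were chosen with earlier results of these data known. Each other list names its genes with the 2 highest and 2 lowest ratios and the 2 most abundant; exceptions are stated. With 2 libraries, no likeness of pattern between genes was measured. Python 3.11.15, NumPy 2.4.6, pandas 2.3.3 and matplotlib 3.10.9 were used, and the ratios were tested on simulated data.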

Additional observations from a re-analysis of the deposited data

How the results depend on the processing

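With 1 library per group, no library could be left out. No paired analysis was possible because each group has 1 library. Across 9 alternatives (pseudocounts of 0.1 and 5, no minimum or a mean of 5 TPM, centring, rescaling, removal of the GC or length trend, the most abundant entry per symbol), 86 of 90 member ratios kept their side of 2-fold. The other 4 were CDH1, at 1.16 centred, 1.23 rescaled, 1.09 with the GC trend removed and 1.13 with the length trend removed. No minimum, a mean of 5 TPM and the most abundant entry per symbol could not change any member ratio. Each member has 1 entry and passes either minimum, so agreement under those alternatives was fixed in advance. Members at least 2-fold higher numbered 4 or 5 and members at least 2-fold lower 0 in each alternative. The member median was 1.05 after rescaling. The sign of TJP1 turned after centring (0.32), rescaling (0.35), and removal of the GC (0.14) or length trend (0.24), and that of CLDN7 with the GC trend removed (0.22).

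Counts over the 57 other junction genes measured moved more. The 6 at least 2-fold higher became 10 with a pseudocount of 0.1, 13 centred, 14 rescaled, 13 with the GC trend removed and 14 with the length trend removed. The 12 lower became 5 centred, 5 rescaled, 2 with the GC trend removed and 5 with the length trend removed. The shares over all genes moved too. Those higher were 11.1% with a pseudocount of 0.1, 14.7% centred, 14.8% rescaled, 13.3% with the GC and 14.6% with the length trend removed, against 8.43% as deposited. Those lower were 16.0% centred, 16.1% rescaled, 13.9% with the GC and 16.3% with the length trend removed, against 25.5% as deposited. On each of these scales, a larger share of the 57 than of all genes was higher, and a smaller share lower. Centring and removal of the GC or length trend set the median log2 ratio of all genes to 0 by construction, against -0.36 as deposited. After rescaling, that median was 0.002. By construction, a smaller pseudocount moves log2 ratios away from 0, most at low TPM, so more genes pass 2-fold. With a pseudocount of 0.1, 30.4% of all genes tested were lower. With a pseudocount of 5, 3.55% were higher and 14.3% lower. Of 322 counts for single lists under these alternatives, 101 moved by more than 1.5 times, so those counts describe the deposited scale. Unknown depth limits low values most, OCLN in shCON among them.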
